A study of Homo sapiens with 18 samples.

Results

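Undifferentiated HUDEP-2 cells with a disrupted HBB gene (HBBko) were compared with unedited HUDEP-2 cells (WT) before differentiation was induced. HUDEP-2 is an immortalized human erythroid progenitor line made from umbilical cord blood that expresses mainly adult globin. The comparison used 3 HBBko and 3 WT libraries, 6 of the 18 in the series. The other 12 libraries are HBBko and WT cells at 48 h and 5 d of differentiation and appear only where a gene is followed to those stages. Per the labels, both lines were grown and differentiated in triplicates. The labels do not say whether those were separate cultures, whether the HBBko line is 1 clone or several, how HBB was cut, or when each library was made, so differences between clones, batches and the knockout cannot be told apart. The expression table names the lines only as thal and wen. These were read as HBBko and WT from the names. The title of the series names MYB, ATF4 and gamma-globin, and these genes are given with every library's value. The deposited values are TPM, a length-corrected level, further scaled by the authors (scaled TPM).

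Red cells fill with hemoglobin, a tetramer of alpha-like and beta-like globin chains. The beta-like genes lie in a cluster that is read in developmental order, from embryonic epsilon (HBE1) to fetal gamma (HBG1, HBG2) to adult delta and beta (HBD, HBB), and alpha chains without a beta-like partner are unstable and bind the chaperone AHSP. When amino acids or heme are short or unfolded protein builds up, kinases phosphorylate the translation factor eIF2, general translation falls and the transcription factor ATF4 is translated. ATF4 then activates genes of amino acid synthesis, amino acid import and tRNA charging together with its own feedback inhibitors. Heat shock factor 1 and the sterol-sensing factor SREBP2 drive separate programmes, of cytosolic chaperones and of cholesterol synthesis.

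The 6 libraries summed to between 783213 and 871601 scaled TPM and had 11120 to 11294 genes at or above 1. Their read depth is unknown. HBB, which checks the labels first, was at 4598, 4843 and 4983 scaled TPM in HBBko replicates 1, 2 and 3 and 12517, 12454 and 22376 in WT. Every HBBko library was below every WT library, and HBBko cells still held HBB transcripts. WT replicate 3 stood apart. It held the most HBB, its coordinate on the first principal component was 30.9 against 10.3 and 15.9 in the other WT libraries (-21.6, -18.2 and -17.4 in HBBko), and it was the WT library farthest from the HBBko mean for 96 of the 122 genes that were at least 2-fold lower and 47 of the 70 that were at least 2-fold higher. WT replicate 3 was also the farthest for 6040 of all 11287 tested genes, 993 of the 1541 called lower and 965 of the 1480 called higher. The median gene had an SD of 0.068 log2 units among the HBBko libraries, 0.15 among the WT libraries and 0.10 between WT replicates 1 and 2. Its sum of scaled TPM was the largest of the 6 and its mitochondrially encoded share the smallest (9.75%, 10.1% to 11.4% in the others).

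A gene entered the test if 3 or more of the 6 libraries held 1 scaled TPM or more. The test was limma's on log2(scaled TPM + 1), and a gene was called at an adjusted p under 0.05. A log2 fold change (log2FC, HBBko minus WT) is a difference on that scale and understates the change of genes near 1 scaled TPM. Of 11287 tested genes 3021 were called (26.8%), 1480 higher in HBBko (13.1%) and 1541 lower (13.7%). The change was at least 2-fold for 192 (1.70%), 70 higher (0.620%) and 122 lower (1.08%). In all 192 the 3 HBBko values did not overlap the 3 WT values, as was so for 47.5% of all tested genes. Leaving out HBBko replicate 1 lowered the calls to 1243, leaving out HBBko replicate 2 to 1650 and HBBko replicate 3 to 1561, whereas leaving out WT replicate 3 gave 3170, of which 2731 were among the 3021. Without that WT library 136 genes were 2-fold changed, and 189 of the 192 remained called. Counts also moved with the model. A fit to all 18 libraries, which share 1 estimate of the spread, called 5129 genes (22.4% higher and 23.1% lower), weights for each library 3686 (16.2% and 16.5%), and a fit with no filter 1747 of 22530 (3.86% and 3.9%). Without HBBko replicate 1, 5.32% of tested genes were higher and 5.7% lower, and without HBBko replicate 2 6.89% and 7.73%. These shares were 6.59% and 7.24% without HBBko replicate 3, and between 13.5% and 14.5% without any 1 WT library. With the replicate number as a block (replicate block) they were 16.2% and 17.1%. At 48 h 21.2% of tested genes were higher and 15.9% lower, and at 5 d 26.8% and 24.9%. List counts from these fits and stages, where given, are to be read against these shares. Those from the main fit are to be read against its 13.1% higher and 13.7% lower.

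**Figure D1:**
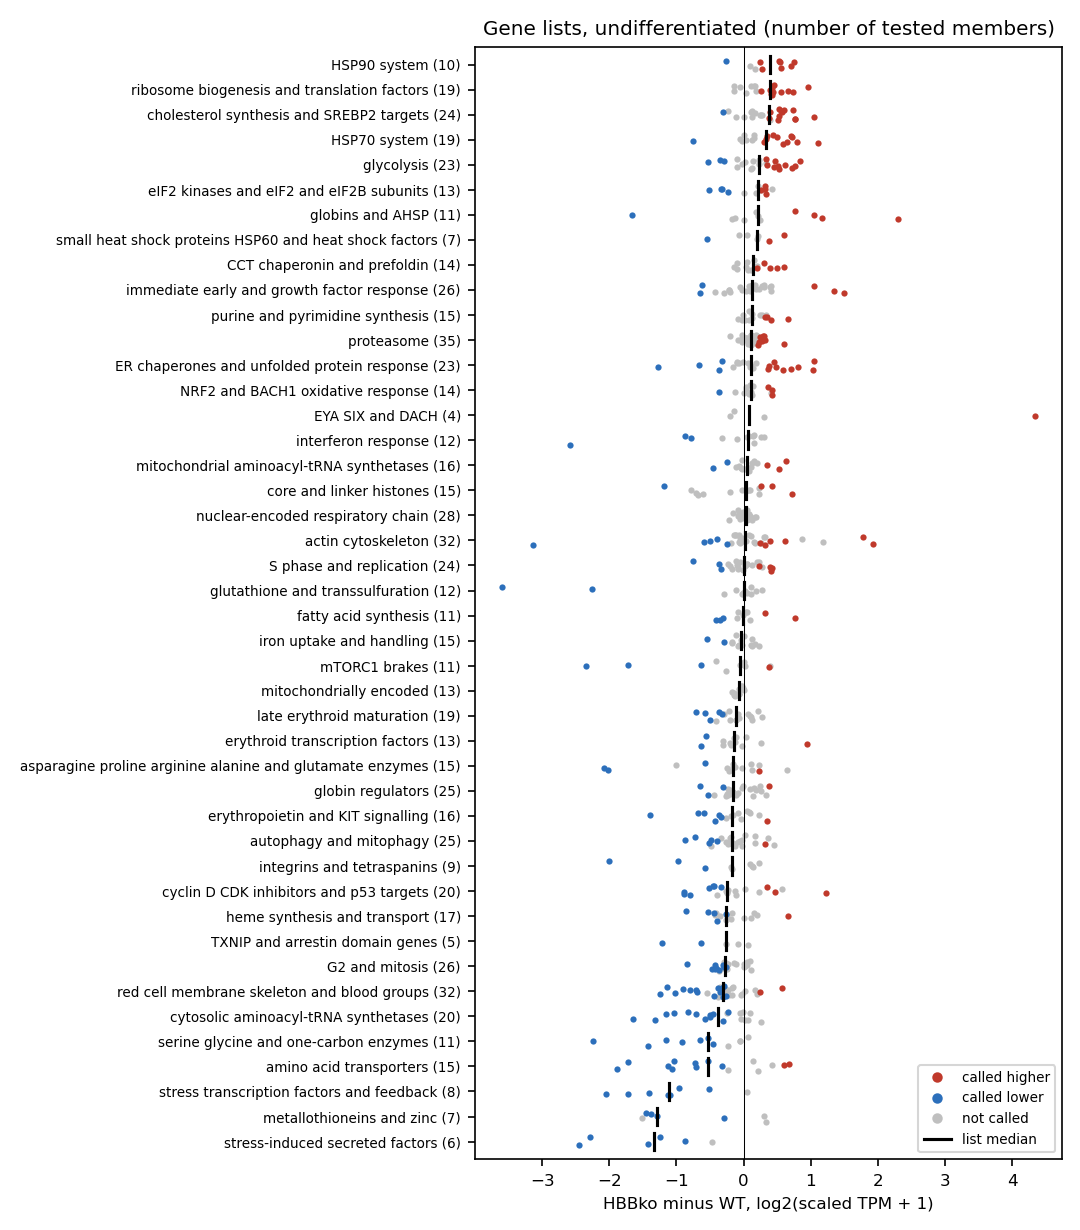
Gene lists in undifferentiated HBBko against WT cells. Each row is a list with the number of its tested genes in brackets, each dot a gene at its log2 fold change (HBBko minus WT, log2(scaled TPM + 1)), coloured by whether limma called it higher, lower or neither, and the black bar is the list's median. Lists of amino acid supply, tRNA synthetases and stress factors lie mostly left of 0, and those of HSP70, HSP90, cholesterol synthesis and ribosome biogenesis mostly right of it.

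The largest increase was EYA4, a transcriptional coactivator and phosphatase of the eyes absent family (chr6:133240598-133532120, GRCh38). It measured 43.5, 47.3 and 42.99 scaled TPM in HBBko replicates 1, 2 and 3 and 1.41, 1.49 and 0.877 in WT, and the groups were far apart (log2FC 4.35 ± 0.12 SE, limma adjusted p = 3.4e-07). The beta-globin pseudogene HBBP1 followed with a log2FC of 2.30 ± 0.08. The calcium-binding protein gene CALB2 (calretinin, chr16:71358713-71390438) was at 23.3, 21.7 and 25.5 scaled TPM in HBBko and 5.86, 5.33 and 4.58 in WT. RHOB, a small GTPase of the actin cytoskeleton (chr2:20447074-20449445), was at 41.1, 27.2 and 31.6 scaled TPM in HBBko and 10.2, 6.91 and 7.01 in WT, so that its lowest HBBko library was still above its highest WT library. CNN3, the actin-binding calponin 3, was at 6.72, 7.22 and 6.67 scaled TPM in HBBko and 1.22, 1.14 and 1.54 in WT. TNFRSF8, the receptor CD30, had a log2FC of 1.58 ± 0.15, from 0.612 to 1.27 scaled TPM in WT to 4.38 to 5.31 in HBBko. Growth factor response genes were among the 20 largest increases: EGR1, an immediate early transcription factor, was at 7.38, 6.55 and 6.48 scaled TPM in HBBko and 2.15, 2.28 and 1.08 in WT, and FOSL1, a subunit of AP-1, at 9.54, 7.25 and 6.97 scaled TPM in HBBko and 3.55, 2.05 and 2.02 in WT. PRG2, the eosinophil granule major basic protein, was at 113, 109 and 111 scaled TPM in HBBko and 37.9, 42.2 and 45.97 in WT, with little spread in either line. The nucleoside transporter SLC29A2 (log2FC 1.33), the RNA polymerase I subunit CD3EAP (log2FC 1.27), the secreted protein CYTL1 (log2FC 1.32), dendrin (DDN, log2FC 1.34), KLHL23 (log2FC 1.43), EPOP (log2FC 1.28), KAZN (log2FC 1.28), TMEM273 (log2FC 1.27) and the acid phosphatase ACPP (log2FC 1.27) were also higher. The pseudogene AC126755.5 was at 2.07, 1.51 and 2.37 in HBBko and listed at 0 in every WT library. It has near-identical copies that pseudoalignment may not separate, so its value is uncertain. AC073896.1 (log2FC 1.29) completed the 20. With no filter on low values, AC073896.1 lost the call.

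The largest decrease was CHAC1, which degrades glutathione and is a target of the integrated stress response (chr15:40952962-40956519). Its values were 2.69, 3.89 and 2.03 scaled TPM in HBBko replicates 1, 2 and 3 and 35.5, 32.3 and 78.7 in WT (log2FC -3.60 ± 0.30, limma adjusted p = 0.00024). WT replicate 3 held the most, and without it the log2FC was -3.20. PLS3, the actin bundler plastin 3 (chrX:115561174-115650861), was at 0.653, 0.617 and 0.687 scaled TPM in HBBko and 12.02, 15.4 and 13.1 in WT, and here the WT libraries were close to each other. The RNA-binding protein gene RBMS1 was at 0.367, 0.274 and 0.293 scaled TPM in HBBko and 7.396, 8.28 and 6.77 in WT and SLFN13, a nuclease of the Schlafen family, at 0.382, 0.361 and 0.414 scaled TPM in HBBko and 6.604, 9.14 and 6.49 in WT; these 3 genes were under 1 scaled TPM in every HBBko library. The peptide hormone gene ADM2 was at 0.415, 0.523 and 0.346 scaled TPM in HBBko and 5.36, 5.004 and 11.3 in WT. INHBE, an inhibin subunit induced by stress, was at 0.224, 0.236 and 0.264 scaled TPM in HBBko and 3.16, 3.98 and 9.81 in WT. SESN2, a leucine sensor upstream of mTORC1, was at 4.196, 3.86 and 3.77 scaled TPM in HBBko and 19.8, 19.5 and 35.8 in WT. CTH, which makes cysteine from cystathionine, was at 4.48, 4.24 and 4.35 scaled TPM in HBBko and 19.01, 22.7 and 33.97 in WT. For ADM2, INHBE, SESN2 and CTH the order was the same, with WT replicate 3 highest and all HBBko libraries below all WT libraries. Enzymes of amino acid synthesis (PSAT1, GPT2, ASNS), the cystine transporter SLC7A11 and the transcription factor ATF3 were also among the 20 and are described with their groups. Others among them were the carbonic anhydrase CA3 (log2FC -2.13), the actin-binding drebrin DBN1 (log2FC -2.07), the fibronectin receptor subunit ITGA5 (log2FC -2.00), the cadherin CDH6 (log2FC -1.88), the nuclear receptor PPARD (log2FC -1.79) and COX6B2 (log2FC -1.86), a cytochrome c oxidase subunit best known from testis. COX6B2 was at 1.51, 1.39 and 1.503 scaled TPM in HBBko and 7.95, 7.97 and 7.94 in WT, the narrowest WT range of these genes. All those named here kept the call in each alternative that tested them, and ATF3 and INHBE were not tested with the filter at 5 scaled TPM.

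**Figure D2:**
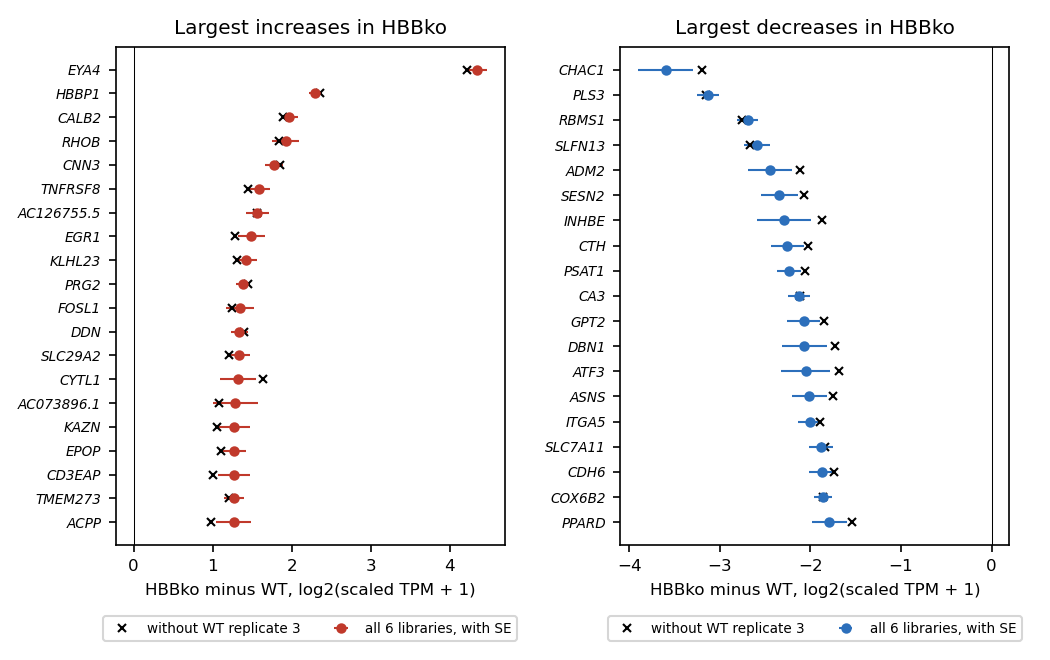
Genes of the 20 largest increases and 20 largest decreases among called genes in undifferentiated HBBko against WT cells, leaving out 1 that is not reported here. The x axis is the log2 fold change (HBBko minus WT, log2(scaled TPM + 1)), bars are the standard error of the limma fit with 3 libraries a group, and crosses give the value without WT replicate 3. EYA4 (log2FC 4.35) and CHAC1 (log2FC -3.60) lie at the ends, and the crosses of CHAC1, ADM2 and INHBE lie nearer to 0.

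Among the globins and AHSP, 4 of 11 tested genes were higher and 1, HBB, was lower, against 13.1% and 13.7% of all tested genes (median log2FC 0.21, -0.0038 over all tested genes). HBB had a log2FC of -1.66 ± 0.20 (limma adjusted p = 0.0012), and -1.38 without WT replicate 3. The fetal genes are near-identical copies and their split is uncertain: HBG1 was at 32.2, 34.6 and 34.5 scaled TPM in HBBko and 12.02, 14.99 and 21.5 in WT, and HBG2 at 304, 339 and 343 scaled TPM in HBBko and 151, 177 and 270.2 in WT. In both the HBBko libraries lay above all WT libraries, and WT replicate 3 was the highest of WT. Without it the log2FC of HBG1 moved from 1.05 to 1.27 and that of HBG2 from 0.76 to 1.00. Embryonic zeta-globin, HBZ, was at 47.1, 37.7 and 52.8 scaled TPM in HBBko and 21.3, 16.005 and 22.5 in WT (log2FC 1.16 ± 0.15, adjusted p = 0.0014). HBBP1, which lies between the delta and gamma genes (chr11:5241105-5243537), was at 199, 192 and 202 scaled TPM in HBBko and 36.2, 39.001 and 43.1 in WT, with the smallest adjusted p of the cluster (1.0e-06). Embryonic epsilon-globin, HBE1, did not pass the filter and was at 0.74, 0.681 and 0.986 scaled TPM in HBBko and 0.388, 0.196 and 0.415 in WT. Delta-globin, HBD, was at 7.398, 6.57 and 7.67 scaled TPM in HBBko and 5.93, 7.43 and 8.296 in WT, with overlapping groups. The alpha genes, also near-identical, were not called. HBA1 was at 4593, 4401 and 5089 scaled TPM in HBBko and 3451, 3096 and 6245 in WT, and only WT replicate 3 exceeded the HBBko libraries. The same order held for HBA2 (3235, 3097 and 3529 scaled TPM in HBBko and 2435, 2050.1 and 4263 in WT). AHSP, the alpha chain chaperone, was at 838, 878 and 933 scaled TPM in HBBko and 833, 911 and 1180.2 in WT, which overlap. Limma no longer called HBG2 without WT replicate 2 (adjusted p = 0.053). A call was added for HBA1, HBA2 and HBM without WT replicate 3 (adjusted p from 0.0019). Without the filter on low values, limma did not call HBG2. Without WT replicate 3 the list had 7 higher genes.

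Per library, the gamma genes made up 6.81 to 7.16% of the summed beta-like globin signal in HBBko and 1.29 to 1.52% in WT. The beta-like sum was 0.623 to 0.697 times the summed HBA1 and HBA2 signal in HBBko and 2.16 to 2.46 times in WT. Neither ratio overlapped between the lines, and WT replicate 3 lay inside the range of the other WT libraries. Most of the beta-like sum comes from the disrupted gene itself, so both ratios shift when HBB falls. Dividing the HBBko mean by the WT mean gave 0.305 for HBB, 2.09 for HBG1 and 1.65 for HBG2. The same quotient was 1.10 for HBA1 and 1.13 for HBA2. The 2 ratios are therefore no measure of gamma or alpha genes apart from HBB. All globins together took 1.65 to 1.802% of the total in HBBko and 2.29 to 3.84% in WT.

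**Figure D3:**
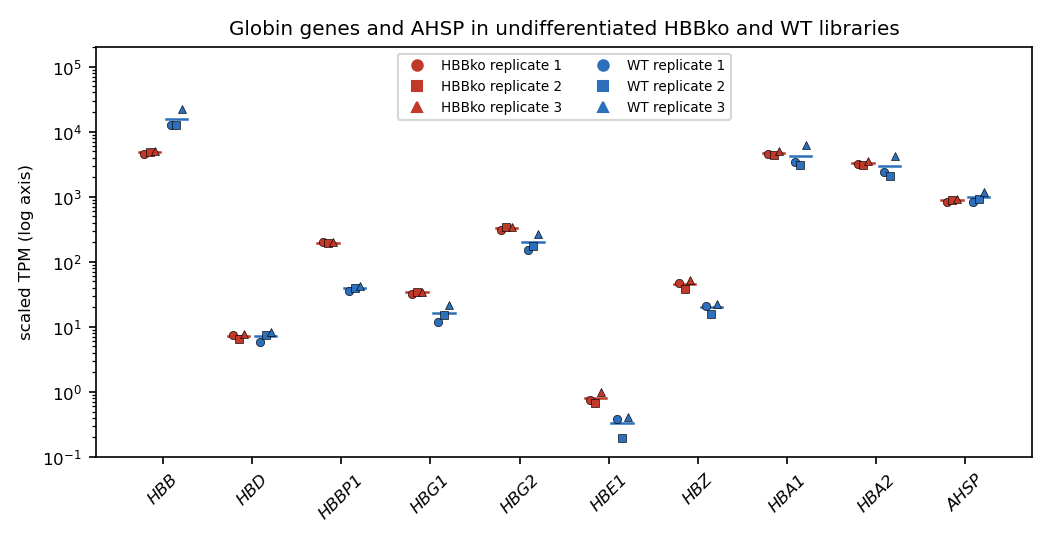
Globins and AHSP in the 6 undifferentiated libraries. The y axis is scaled TPM on a log axis, points are single libraries (3 HBBko, 3 WT, with WT replicate 3 marked) and bars are group means. HBB is lower in each HBBko library, HBG1, HBG2, HBZ and HBBP1 are higher, and HBA1, HBA2, HBD and AHSP overlap.

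Of 25 tested regulators of globin switching 1 was called higher and 3 lower (median log2FC -0.16), under the 13.1% and 13.7% of all tested genes. KLF3, a repressor that competes with KLF1 for the same sites, was at 24.4, 25.1 and 25.6 scaled TPM in HBBko and 37.7, 42.6 and 39.1 in WT (log2FC -0.64 ± 0.08, limma adjusted p = 0.0011). KLF1, the activator of adult globin, was at 309, 284 and 316 scaled TPM in HBBko and 448, 363 and 524 in WT, and KDM1A, a histone demethylase of the gamma-globin repressor complexes, had a log2FC of -0.31. GATAD2A, a subunit of the NuRD repressor, was higher (log2FC 0.38). MYB, a progenitor transcription factor, was at 169, 161 and 166 scaled TPM in HBBko and 191, 196 and 181 in WT (log2FC -0.20 ± 0.07, adjusted p = 0.053), without overlap. BCL11A, the main repressor of the gamma genes, was at 10.9, 10.8 and 11.2 scaled TPM in HBBko and 12.7, 12.1 and 15.1 in WT (adjusted p = 0.094), also without overlap. Groups that do not overlap were found for 47.5% of all tested genes, so this does not set MYB and BCL11A apart. The call was lost for KLF1 without HBBko replicate 2 (adjusted p = 0.051), KDM1A without HBBko replicate 1 or 2 (adjusted p up to 0.077), GATAD2A without HBBko replicate 1, 2 or 3 or WT replicate 2 (adjusted p up to 0.099). Limma also called MYB without WT replicate 3 (adjusted p = 0.017). So it did in the fit to all 18 libraries, with library weights and under quantile normalization (adjusted p from 0.013 to 0.046). BCL11A was called by limma in the fit to all 18 libraries (adjusted p = 0.023). Keeping genes of low value in the fit ended the call of KLF1 and GATAD2A. The count of lower regulators was 1 without HBBko replicate 2, 5 without WT replicate 3, 6 without WT replicate 2 and 6 with the replicate block, and the count of higher ones was 0 without any 1 HBBko library or WT replicate 2 and 2 without WT replicate 1 or with the block. In the fit to all 18 libraries 12 regulators were lower and 3 higher, and with library weights 9 and 2.

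Of 13 tested erythroid transcription factors, GATA2, a factor of stem and early progenitor cells, was higher (244, 178 and 208 scaled TPM in HBBko and 139.7, 95.7 and 92.3 in WT; log2FC 0.95 ± 0.16, limma adjusted p = 0.0043). FOXO3, which acts in maturing erythroblasts, was lower (18.7, 19.1 and 17.1 scaled TPM in HBBko and 30.6, 29.05 and 26.9 in WT), as was the cell cycle factor E2F2 (11.96, 11.6 and 11.9 scaled TPM in HBBko and 16.7, 16.2 and 21.5 in WT). GATA1, the master factor of the lineage, was at 179, 166 and 189.6 scaled TPM in HBBko and 212, 188 and 266 in WT. It overlapped between the lines (adjusted p = 0.087; adjusted p = 0.017 with the replicate block). TAL1 and ZFPM1 had log2FC values of -0.12 and -0.02 and were not called. A call was gained for GATA1 without WT replicate 2 (adjusted p = 0.03). GATA1 was also called by limma in the fit to all 18 libraries, with library weights and under quantile normalization (adjusted p up to 0.036). The list median was -0.14. Its count of lower genes was 6 without WT replicate 2 and 5 with the block, and its count of higher genes 2 without WT replicate 1 and with the block. The fit to all 18 libraries had 5 lower and library weights 4.

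Lower levels of ATF4 and of 6 other stress factors were measured in HBBko. Of 8 tested stress transcription factors and feedback genes 7 were lower and none higher (median log2FC -1.11). ATF4 itself was at 303, 272 and 302 scaled TPM in HBBko and 514, 516 and 704 in WT (log2FC -0.97 ± 0.12, limma adjusted p = 0.0013), and its transcript does not show how much of it is translated. ATF3, a stress-induced factor of the same family, was at 0.502, 0.751 and 0.819 scaled TPM in HBBko and 4.2001, 4.6005 and 10.6 in WT. DDIT3, which encodes CHOP, was at 9.93, 8.48 and 11.4 scaled TPM in HBBko and 20.7, 18.6 and 30.7 in WT. CEBPB was at 4.07, 3.93 and 4.01 scaled TPM in HBBko and 10.6, 9.11 and 19.2 in WT and its dimer partner CEBPG at 10.2, 9.57 and 10.2 scaled TPM in HBBko and 17.6, 21.4 and 30.002 in WT. In these genes every WT library was above every HBBko library and WT replicate 3 was the highest. TRIB3, a pseudokinase that restrains ATF4, had a log2FC of -1.72 ± 0.25 (log2FC -1.36 without WT replicate 3). PPP1R15A, the inducible phosphatase subunit that removes the phosphate of eIF2, had a log2FC of -0.51. ATF5 was at 94.7, 76.01 and 82.4 scaled TPM in HBBko and 74.8, 67.9 and 104 in WT and was not called.

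ATF4 and its partners bind composite C/EBP-ATF elements, and their core was sought as TGATGNAAN on both strands in RefSeq promoter windows (GRCh38.p14, 250 bases before to 50 after each start). It was found in 1215 of 27305 genes of the whole promoter table (4.45%), in 7 of the 16 cytosolic tRNA synthetase genes that matched a window (20 tested), in 4 of 14 amino acid transporters (15 tested) and in 2 of 8 stress factors. Enzymes of other non-essential amino acids had it in 3 of 9 (15 tested), and serine, glycine and one-carbon enzymes in 1 of 7 (11 tested). The core was in 1 of 8 mTORC1 brakes (11 tested) and 1 of 10 glutathione and transsulfuration genes (12 tested). Of the stress-induced secreted factors 0 of 4 held it (6 tested). A match is a description of the letters, not a bound site. The following stretches are from genes lower in HBBko, 5′ to 3′ on the gene's strand with the match in capitals, and are shown because they place the same core beside genes of different function. Stretches over an annotated exon were kept to 30 bases.
CHAC1 (chr15:40953251-40953280, plus strand): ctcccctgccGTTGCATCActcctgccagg
ATF3 (chr1:212565171-212565270, plus strand): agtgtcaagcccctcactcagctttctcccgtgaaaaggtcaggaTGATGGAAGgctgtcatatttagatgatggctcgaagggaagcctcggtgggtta
ASNS (chr7:97872457-97872486, minus strand): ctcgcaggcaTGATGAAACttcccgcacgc
AARS (chr16:70289675-70289704, minus strand): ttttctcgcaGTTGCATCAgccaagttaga
CEBPG (chr19:33374013-33374112, plus strand): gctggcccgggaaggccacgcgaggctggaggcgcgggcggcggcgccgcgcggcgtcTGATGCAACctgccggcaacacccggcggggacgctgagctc
SLC1A5 (chr19:46784892-46784921, minus strand): aggaagtggcTGATGCAAGctgtccagggt

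Most enzymes of serine, glycine and one-carbon synthesis were lower. Of 11 tested 7 were called, all lower (median log2FC -0.53). PSAT1, the second enzyme of serine synthesis (chr9:78297143-78330093), was at 43.6, 45.1 and 44.2 scaled TPM in HBBko replicates 1, 2 and 3 and 178, 199 and 270.2 in WT (log2FC -2.24 ± 0.13, limma adjusted p = 3.0e-05). PHGDH, the first enzyme, was at 0.825, 0.852 and 0.795 scaled TPM in HBBko and 2.103, 2.12 and 11.02 in WT, and PSPH, the last, at 29.8, 31.5 and 28.03 scaled TPM in HBBko and 51.8, 53.5 and 66.4 in WT. HBBko libraries lay below all WT libraries in the 3 genes of the pathway, and PHGDH had the widest WT range. The mitochondrial folate enzymes MTHFD2 and SHMT2 had log2FC values of -1.15 and -0.66. TYMS, the thymidylate enzyme of DNA synthesis, had a log2FC of -0.05 and was not called. No call was made for PHGDH without HBBko replicate 1, 2 or 3 (adjusted p up to 0.099). In a fit with no filter on low values, limma did not call PHGDH. PHGDH was also not called under a pseudocount of 5, quantile normalization and a fit with no intensity trend.

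Among enzymes of the other non-essential amino acids 3 of 15 tested were lower and 1 higher (median log2FC -0.15), near the share of all tested genes. ASNS, asparagine synthetase (chr7:97852118-97872542), was at 40.96, 44.1 and 41.6 scaled TPM in HBBko and 131, 158 and 251 in WT (log2FC -2.01 ± 0.19, limma adjusted p = 0.0004), and GPT2, the mitochondrial alanine transaminase, at 9.57, 7.25 and 8.76 scaled TPM in HBBko and 35.001, 31.4 and 53.5 in WT. In both the highest HBBko library was far below the lowest WT library. PYCR1, the last enzyme of proline synthesis, had a log2FC of -0.57, and ALDH18A1, the first, was higher (log2FC 0.24). ASS1, argininosuccinate synthase, was at 1.84, 2.22 and 2.42 scaled TPM in HBBko and 3.01, 3.68 and 12.5 in WT and was not called (adjusted p = 0.076; adjusted p = 0.015 with the replicate block). Calls ended for PYCR1 without HBBko replicate 2 (adjusted p = 0.052) and ALDH18A1 without HBBko replicate 1, 2 or 3 (adjusted p up to 0.14). A call appeared for ASS1 without WT replicate 1 or 3 (adjusted p from 0.03). With no filter on low values, PYCR1 lost the call. The lower count was 5 without any 1 WT library and with the replicate block, and the higher count 0 without any 1 HBBko library and 2 without WT replicate 2 or 3 or with the block. In the fit to all 18 libraries 6 were lower and 3 higher.

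Amino acid import followed the same direction: of 15 tested transporters 9 were lower and 2 higher (median log2FC -0.53). SLC7A11, which takes up cystine, was at 1.22, 1.05 and 1.54 scaled TPM in HBBko and 6.33, 7.98 and 7.77 in WT (log2FC -1.88 ± 0.13, limma adjusted p = 6.4e-05). SLC6A9, the glycine transporter needed for heme synthesis in erythroid cells, was at 20.7, 17.6 and 23.7 scaled TPM in HBBko and 64.3, 56.7 and 93.7 in WT. SLC1A5, the glutamine carrier, was at 159, 146 and 151 scaled TPM in HBBko and 311, 275 and 384 in WT. The paired heavy and light chains of the leucine exchanger, SLC3A2 and SLC7A5, had log2FC values of -1.04 and -0.70, and the cationic amino acid carrier SLC7A1 one of -0.53. SLC43A1 (log2FC -0.72) and SLC1A4 (log2FC -1.12) were also lower. Of SLC7A5's family, SLC7A6 was higher (log2FC 0.68), as was SLC43A2 (log2FC 0.61). SLC38A2 was at 111, 93.8 and 104 scaled TPM in HBBko and 136, 128 and 100.2 in WT, overlapping. A call was added for SLC38A2 without WT replicate 3 (adjusted p = 0.012). Without the filter on low values, limma did not call SLC7A5, SLC1A4 and SLC7A6.

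The enzymes that charge cytosolic tRNAs were lower in 12 of 20 tested genes and higher in none (median log2FC -0.38), whereas the mitochondrial set had 3 higher and 2 lower of 16 (median log2FC 0.06). WARS, for tryptophan, was at 72.9, 73.8 and 72.8 scaled TPM in HBBko and 185, 201 and 328 in WT (log2FC -1.64 ± 0.18, limma adjusted p = 0.00073). CARS, for cysteine, was at 33.6, 32.1 and 33.6 scaled TPM in HBBko and 75.3, 75.6 and 104 in WT, AARS, for alanine, at 77.7, 75.04 and 79.5 scaled TPM in HBBko and 151, 153 and 224 in WT and GARS, for glycine, at 137, 125 and 144 scaled TPM in HBBko and 243, 257 and 349 in WT. No WT library of these 4 fell to the HBBko range. MARS (log2FC -0.83), EPRS (log2FC -0.71), YARS (log2FC -0.58), NARS (log2FC -0.50), SARS (log2FC -0.50) and TARS (log2FC -0.45) were also lower. VARS, for valine, was at 179, 171 and 176 scaled TPM in HBBko and 171, 149.9 and 170.2 in WT, and RARS, for arginine, at 45.7, 49.9 and 46.1 scaled TPM in HBBko and 37.7, 43.7 and 36.3 in WT; neither was called, but RARS was with the replicate block (adjusted p = 0.023). Of the mitochondrial enzymes TARS2 was lower (log2FC -0.46) and MARS2 higher (log2FC 0.64), and both calls were kept in each alternative; the other 3 calls (EARS2, LARS2 and FARS2) were not. Significance was lost for EARS2 without HBBko replicate 2 or 3 (adjusted p up to 0.063), LARS2 without HBBko replicate 1, 2 or 3 or WT replicate 1 or 3 (adjusted p up to 0.17), FARS2 without HBBko replicate 1, 2 or 3 or WT replicate 1 or 2 (adjusted p up to 0.2). Limma also called RARS without WT replicate 2 (adjusted p = 0.016). Keeping genes of low value in the fit ended the call of EARS2, LARS2 and FARS2. LARS2 was also not called under equal library sums and removal of the globins from the sums. FARS2 was also not called under a pseudocount of 5, equal library sums, median-of-ratios scaling, removal of the globins from the sums, the replicate block and a fit with no intensity trend. With 1 HBBko library left out, or WT replicate 1 or 2, 1 mitochondrial gene was lower, and 1 was higher without HBBko replicate 2 or 3. Without WT replicate 2 and with the replicate block 1 cytosolic gene was higher.

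Genes that slow mTORC1 signalling included strong decreases among little changed members, with 3 lower and 1 higher of 11 (median log2FC -0.06). DDIT4 (REDD1), which activates the TSC complex, was at 124, 131 and 128 scaled TPM in HBBko and 429.6, 352 and 512 in WT (log2FC -1.73 ± 0.12, limma adjusted p = 6.4e-05). SESN2 had a log2FC of -2.34 and EIF4EBP1, the translational repressor, a log2FC of -0.63. TSC1 and TSC2 had log2FC values of 0.02 and 0.01. AKT1S1, an inhibitory mTORC1 subunit, was higher (log2FC 0.38). Limma no longer called AKT1S1 without HBBko replicate 1 or 3 (adjusted p up to 0.064). The count of higher genes was 0 without HBBko replicate 1 or 3, and 2 without WT replicate 2 or with the replicate block.

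Of 12 tested genes of glutathione and transsulfuration the CHAC1 and CTH transcripts were lower and none was higher (median log2FC 0.00037). The rate-limiting glutathione enzyme GCLC was at 45.9, 47.01 and 44.7 scaled TPM in HBBko and 48.6, 52.1 and 39.3 in WT and its partner GCLM had a log2FC of 0.02. CBS, the first transsulfuration enzyme, was at 270.4, 258 and 279 scaled TPM in HBBko and 328, 289 and 373 in WT (adjusted p = 0.0504; adjusted p = 0.017 with the replicate block). Secreted factors induced by stress were lower in 5 of 6 tested genes (median log2FC -1.33). VEGFA, the angiogenic factor, was at 59.3, 52.8 and 61.7 scaled TPM in HBBko and 124, 126 and 169.8 in WT (log2FC -1.25 ± 0.12, limma adjusted p = 0.00043). STC2, stanniocalcin 2, was at 0.453, 0.857 and 0.481 scaled TPM in HBBko and 2.59, 2.66 and 4.85 in WT. GDF15, a stress hormone also released by erythroblasts, was at 6.44, 6.56 and 5.83 scaled TPM in HBBko and 11.5, 8.58 and 18.6 in WT. The call was lost for GDF15 without HBBko replicate 1 or 3 (adjusted p up to 0.058). A call was gained for CBS without WT replicate 2 (adjusted p = 0.015). CBS was also called with the filter at 5 scaled TPM, in the fit to all 18 libraries and with library weights. Equal library sums, quantile normalization and removal of the globins from the sums called it too. In a fit with no filter on low values, limma did not call GDF15. Without WT replicate 1 or 3, and with the block, 1 glutathione gene was higher.

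When the 8 lists of amino acid supply, stress factors, mTORC1 brakes, glutathione and secreted factors were pooled, a grouping made after their values were known, 48 of 98 tested genes were lower and 4 higher (median log2FC -0.32), against 13.7% and 13.1% of all tested genes. WT replicate 3 had the highest level in 41 of the 48 and WT replicate 2 in 7. Of all 1541 genes called lower, WT replicate 3 was the farthest from the HBBko mean in 993. Without WT replicate 3, 52 of the 98 were lower, and over the fits that left out 1 library the count ran from 42 to 52. Of the 48, 44 were also lower at 48 h of differentiation and 37 at 5 d (1 was higher there), against 15.9% and 24.9% of all tested genes. Higher genes numbered 4, and 2 without HBBko replicate 1 or 3, 8 without WT replicate 2 and 9 with the replicate block.

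**Figure D4:**
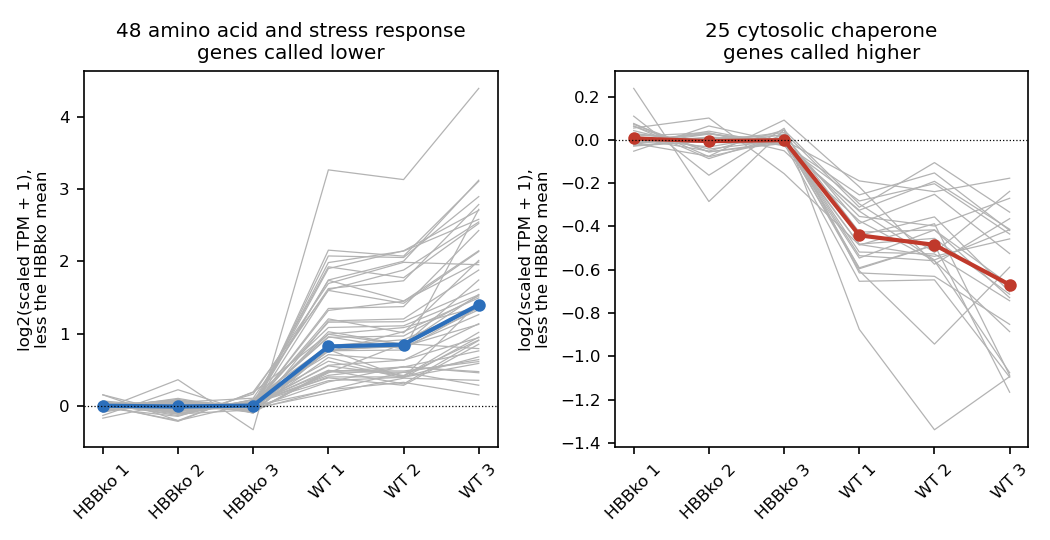
Lower amino acid and stress genes (48) and higher cytosolic chaperone genes (25) by library. The x axis is the 6 undifferentiated libraries and the y axis each gene's log2(scaled TPM + 1) less its HBBko mean; thin lines are genes and the thick line their median. The thick line of the first set is above 0 in all WT libraries and farthest in WT replicate 3, and that of the second is below 0 in all of them. The genes were chosen by these values, so the panels are a description.

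The eIF2 kinases and subunits changed in both directions. Of 13 tested 4 were higher and 4 lower (median log2FC 0.22). EIF2S2, the beta subunit of eIF2, was at 68.7, 69.6 and 72.2 scaled TPM in HBBko and 90.7, 98.6 and 113 in WT (log2FC -0.51 ± 0.09, limma adjusted p = 0.0042). EIF2AK1, the heme-regulated kinase, was at 106, 104 and 106 scaled TPM in HBBko and 118, 126 and 127 in WT and was lower (log2FC -0.23). The amino acid sensor EIF2AK4 was at 13.3, 14.98 and 13.6 scaled TPM in HBBko and 13.9, 15.6 and 12.4 in WT and EIF2AK3, the kinase of the endoplasmic reticulum, at 4.71, 6.04 and 4.79 scaled TPM in HBBko and 4.67, 4.65 and 3.65 in WT; neither was called. Without any 1 HBBko library no gene of the list was higher, and 1 (without HBBko replicate 1 or 3) or 2 (without HBBko replicate 2) were lower. With no filter 1 was higher. No call was made for EIF2AK1 without HBBko replicate 1, 2 or 3 (adjusted p up to 0.13). EIF2AK1 was also not called under equal library sums, removal of the globins from the sums and a fit with no intensity trend.

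More cytosolic chaperone genes were higher than lower. In the HSP70 system 11 of 19 tested genes were higher and 1 lower (median log2FC 0.34), and in the HSP90 system 7 of 10 were higher and 1 lower (median log2FC 0.40). HSPA8, the constitutive HSP70, was at 1891, 1731 and 1779 scaled TPM in HBBko replicates 1, 2 and 3 and 1143, 1149 and 841 in WT (log2FC 0.80 ± 0.12, limma adjusted p = 0.0026). The inducible copies HSPA1A and HSPA1B are near-identical and their split is uncertain; HSPA1A was at 53.8, 37.1 and 46.995 scaled TPM in HBBko and 24.3, 17.4 and 20.8 in WT and HSPA1B at 69.5, 62.4 and 65.98 scaled TPM in HBBko and 42.995, 33.8 and 43.5 in WT. DNAJA1, a J-domain partner of HSP70, was at 155, 139.7 and 151 scaled TPM in HBBko and 97.9, 106 and 92.8 in WT, and HSPH1, a nucleotide exchange factor, at 86.2, 81.2 and 83.6 scaled TPM in HBBko and 57.4, 56.5 and 39.2 in WT. In each of these the lowest HBBko library was above the highest WT library. HSPA4 (log2FC 0.50) and BAG1 (log2FC 0.43) were also higher, and HSPA13, a microsomal member, was lower (log2FC -0.75). Of the HSP90 system, the inducible HSP90AA1 was at 822, 808 and 812 scaled TPM in HBBko and 540.0, 581 and 362 in WT, and the co-chaperones AHSA1, STIP1, CHORDC1 and FKBP4 had log2FC values of 0.54, 0.55, 0.70 and 0.52. With no filter on low values, HSP90AA1 lost the call. The HSP70 list had 7 higher genes without HBBko replicate 1, and the HSP90 list no lower gene without any 1 HBBko library. With no filter 4 HSP90 genes were higher.

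The mitochondrial co-chaperonin HSPE1 was higher (291, 297 and 295 scaled TPM in HBBko and 205, 204 and 175 in WT), and its partner HSPD1 was not called (log2FC 0.22). Of the 7 small heat shock, HSP60 and heat shock factor genes 2 were higher and 1 lower, and 1 was higher without HBBko replicate 1 or 3 and none lower without HBBko replicate 1 or 2. HSF1, the heat shock factor, was at 69.2, 64.8 and 74.7 scaled TPM in HBBko and 77.5, 61.8 and 79.5 in WT, with overlap. In the cytosolic chaperonin and prefoldin 5 of 14 tested subunits were higher (median log2FC 0.13), led by TCP1 (log2FC 0.61), PFDN2 (log2FC 0.49) and CCT6A (log2FC 0.39), and 3 were without any 1 HBBko library. Of these subunits 8 were higher in the fit to all 18 libraries. A call appeared for HSPD1 without WT replicate 2 (adjusted p = 0.012). Without the filter on low values, limma did not call TCP1. Pooled, the 4 chaperone lists had 25 higher and 3 lower of 50 genes (median log2FC 0.21). That count was 16 without HBBko replicate 1 and 18 without HBBko replicate 2 or 3. Of the 25, 23 were also higher at 48 h and 19 at 5 d, against 21.2% and 26.8% of all tested genes.

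The heat shock element, sought as 3 adjoining units of NGAAN in alternating orientation on both strands in the same windows, was found in 163 of 27305 genes (0.597%). Of the chaperonin and prefoldin genes with a window 0 of 12 held it (14 tested). It was present in 3 of the 17 HSP70 system genes with a window (19 tested; HSPA8, DNAJA1 and DNAJB6), in 3 of 9 HSP90 system genes (10 tested; HSP90AA1, HSP90AB1 and CHORDC1) and in 2 of 5 small heat shock, HSP60 and heat shock factor genes (7 tested; HSPD1 and SERPINH1). Of these 8 genes 5 were called higher, and DNAJB6 (log2FC 0.16), HSPD1 (log2FC 0.22) and SERPINH1 (log2FC 0.05) were not called. The stretches that follow are from 4 of the 5 that were higher in HBBko; capitals mark the match, and in CHORDC1 the capitals cover 3 overlapping matches. HSP90AB1 had a log2FC of 0.28. Calls ended for HSP90AB1 without HBBko replicate 1, 2 or 3 or WT replicate 1 (adjusted p up to 0.14). Keeping genes of low value in the fit ended the call of HSP90AB1. HSP90AB1 was also not called under a fit with no intensity trend.
HSPA8 (chr11:123062345-123062374, minus strand): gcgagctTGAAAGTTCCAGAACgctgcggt
HSP90AA1 (chr14:102087111-102087140, minus strand): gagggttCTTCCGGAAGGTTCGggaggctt
CHORDC1 (chr11:90223083-90223112, minus strand): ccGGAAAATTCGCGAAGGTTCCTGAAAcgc
HSP90AB1 (chr6:44247761-44247860, plus strand): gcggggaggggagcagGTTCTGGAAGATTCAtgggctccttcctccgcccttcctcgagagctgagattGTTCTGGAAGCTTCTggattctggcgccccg

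In the endoplasmic reticulum 9 of 23 tested genes were higher and 4 lower (median log2FC 0.11). Among the higher chaperones, HSPA5 (BiP) was at 132, 119 and 122 scaled TPM in HBBko replicates 1, 2 and 3 and 58.7, 61.97 and 57.7 in WT (log2FC 1.05 ± 0.07, limma adjusted p = 6.4e-05), MANF at 45.1, 45.96 and 43.9 scaled TPM in HBBko and 23.9, 20.7 and 19.98 in WT and HSP90B1 at 182, 177 and 178 scaled TPM in HBBko and 108, 120.1 and 100.8 in WT. The groups of these 3 genes did not overlap. SDF2L1 (log2FC 0.80), PDIA4 (log2FC 0.59), HYOU1 (log2FC 0.45) and PDIA3 (log2FC 0.37) were also higher. XBP1, a transcription factor of the unfolded protein response, was at 48.6, 44.1 and 44.7 scaled TPM in HBBko and 62.9, 72.4 and 86.7 in WT, and HERPUD1, a component of protein degradation that is also an ATF4 target, at 23.8, 20.97 and 24.2 scaled TPM in HBBko and 51.7, 48.8 and 73.9 in WT; both were lower. The other lower genes were ATF6 (log2FC -0.32) and DNAJB9 (log2FC -0.36). Significance was lost for ATF6 without HBBko replicate 1, 2 or 3 or WT replicate 2 (adjusted p up to 0.11) and DNAJB9 without HBBko replicate 1, 2 or 3 or WT replicate 1 (adjusted p up to 0.14). In a fit with no filter on low values, limma did not call ATF6 and DNAJB9. ATF6 was also not called under equal library sums and removal of the globins from the sums. DNAJB9 was also not called under equal library sums. Without any 1 HBBko library 2 genes were lower. Of the 9 higher genes 6 were also higher at 48 h, and at 5 d 4 were higher and 3 lower. Over all tested genes 21.2% were higher at 48 h, and at 5 d 26.8% were higher and 24.9% lower.

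Of 35 tested proteasome genes 8 were higher and none lower (median log2FC 0.12). PSME3, an activator cap, was at 156, 152 and 147 scaled TPM in HBBko and 108, 111 and 83.1 in WT. Only 1 was higher without HBBko replicate 1 or 2, 2 without HBBko replicate 3, and 5 without WT replicate 1. Over all tested genes 5.32%, 6.89%, 6.59% and 13.9% were higher in these fits, in that order. Library weights and the fit to all 18 libraries each had 15 higher proteasome genes, and a fit with no filter 5. Autophagy genes were lower in 5 of 25 and higher in 1 (median log2FC -0.17). OPTN, a mitophagy receptor, was at 19.3, 20.3 and 19.7 scaled TPM in HBBko and 34.8, 34.6 and 42.3 in WT, and NBR1 and the lysosomal membrane protein LAMP2 had log2FC values of -0.52 and -0.48. With the replicate block 8 autophagy genes were lower, in the fit to all 18 libraries 14, and with no filter 3. The higher count was 0 without any 1 HBBko library, and 2 without any 1 WT library and with the block.

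More genes of cholesterol synthesis were higher than lower. Of 24 tested genes of the pathway and its SREBP2 targets 12 were higher and 1 lower (median log2FC 0.38). INSIG1, the sterol-sensing anchor of SREBP2, was at 98.2, 81.7 and 92.3 scaled TPM in HBBko replicates 1, 2 and 3 and 47.9, 42.5 and 39.3 in WT (log2FC 1.05 ± 0.10, limma adjusted p = 0.00034). The synthesis enzyme MSMO1 was at 34.4, 31.6 and 30.1 scaled TPM in HBBko and 18.5, 21.9 and 15.5 in WT. In both genes the groups were separate. Of the other synthesis enzymes, IDI1 had a log2FC of 0.60, NSDHL 0.56 and DHCR7 0.53. SREBF2, which encodes SREBP2, was the lower gene (log2FC -0.30). The core of the sterol response element was sought as TCACNCCAC on both strands in the promoter windows. It was in 379 of 27305 genes of the whole promoter table (1.39%). Of the cholesterol genes with a window 1 of 18 held it (24 tested), and that gene was SREBF2. A fit with no filter had 7 higher genes of this list. Limma no longer called SREBF2 without HBBko replicate 1, 2 or 3 (adjusted p up to 0.069). Fatty acid synthesis had 2 higher and 3 lower of 11 (median log2FC -0.0028), against 13.1% and 13.7% of all tested genes. FASN, fatty acid synthase, was at 154, 131 and 156 scaled TPM in HBBko and 93.01, 77.7 and 88.4 in WT and SREBF1 had a log2FC of -0.41. Without HBBko replicate 1 or 2 no gene of that list was lower, and 1 was higher without any 1 HBBko library or WT replicate 2. The call was lost for SREBF1 without HBBko replicate 1 or 2 (adjusted p up to 0.065). With no filter on low values, SREBF1 lost the call.

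Ribosome biogenesis and translation factor genes were higher in 11 of 19 tested and lower in none (median log2FC 0.39). NOP56, a core protein of the small nucleolar particles that modify rRNA, was at 401, 383 and 388 scaled TPM in HBBko and 256, 248 and 199 in WT (log2FC 0.74 ± 0.10, limma adjusted p = 0.0015). POLR1B, the second subunit of RNA polymerase I, was at 32.9, 32.6 and 29.8 scaled TPM in HBBko and 19.2, 18.4 and 11.3 in WT. RRP9 (log2FC 0.67), PES1 (log2FC 0.41) and the initiation factor EIF4G1 (log2FC 0.43) were also higher. Leaving out HBBko replicate 1 gave 5, replicate 2 gave 6 and replicate 3 gave 7, and 1 gene was lower without WT replicate 2. With no filter 7 were higher. The ribosomal proteins themselves, 81 genes taken by symbol, had 4 higher and none lower (median log2FC -0.079), under the 13.1% and 13.7% of all tested genes. Nucleotide synthesis had 4 higher of 15 (median log2FC 0.13), with UMPS, of pyrimidine synthesis, at 57.8, 58.3 and 52.4 scaled TPM in HBBko and 38.5, 37.3 and 29.7 in WT. With any 1 HBBko library left out it was 1. The fit to all 18 libraries had 7 higher and that with no filter 1.

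Glycolysis had 10 higher and 3 lower of 23 tested genes (median log2FC 0.23). LDHA, which makes lactate, was at 625, 619.9 and 574 scaled TPM in HBBko and 408, 412 and 293 in WT (log2FC 0.72 ± 0.13, limma adjusted p = 0.0044), and the lactate exporter SLC16A3 at 49.9, 40.4 and 43.9 scaled TPM in HBBko and 30.1, 22.9 and 21.5 in WT. PFKP, the platelet phosphofructokinase, was at 42.1, 37.8 and 40.3 scaled TPM in HBBko and 29.7, 21.96 and 19.04 in WT. TPI1 (log2FC 0.47), PGAM1 (log2FC 0.51) and ENO1 (log2FC 0.46) were also higher. SLC2A1, the glucose transporter, was lower (log2FC -0.53). Without HBBko replicate 1 the higher count was 6. The lower count was 0 without HBBko replicate 1 or 2 and 1 without HBBko replicate 3 or WT replicate 1. At 5 d 4 of the 10 higher genes were higher and 3 lower, against 26.8% and 24.9% of all tested genes. With no filter none of the list was lower. No call was made for SLC2A1 without HBBko replicate 1 or 2 (adjusted p up to 0.071). Without the filter on low values, limma did not call SLC2A1. By contrast none of 28 nuclear-encoded respiratory chain genes (median log2FC 0.03) and none of 13 mitochondrially encoded genes (median log2FC -0.07) was called by limma. Of the nuclear set 1 was higher without WT replicate 3, 1 lower without WT replicate 1 or with the replicate block, and 2 lower without WT replicate 2. In the fit to all 18 libraries and with library weights 3 were higher and 2 lower.

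Several genes of heme synthesis, the red cell membrane and erythropoietin signalling were lower. Of 17 heme genes 5 were lower and 1 higher (median log2FC -0.26). ALAD, the second enzyme of the pathway, was at 60.3, 62.01 and 68.97 scaled TPM in HBBko and 106, 106 and 141 in WT (log2FC -0.86 ± 0.12, limma adjusted p = 0.0017). FLVCR1, which exports heme, was at 7.96, 8.47 and 7.53 scaled TPM in HBBko and 5.18, 5.24 and 3.72 in WT and was the higher gene. ALAS2, the erythroid first enzyme, was at 70.2, 82.2 and 79.1 scaled TPM in HBBko and 86.3, 94.1 and 137 in WT. Its groups did not overlap, as was so for 47.5% of all tested genes. ALAS2 was not called (limma adjusted p = 0.068, and adjusted p = 0.016 with the replicate block). The lower count was 1 without HBBko replicate 1, 2 without HBBko replicate 2 or 3, and 9 with the replicate block, and the higher count 2 without WT replicate 3. The fit to all 18 libraries had 10 lower heme genes, and that with no filter 1. Of the 5 lower heme genes 1 was also lower at 48 h, and at 5 d 1 was lower and 4 were higher in HBBko. Over all tested genes 15.9% were lower at 48 h, and at 5 d 24.9% were lower and 26.8% higher. Iron handling had 2 lower of 15 (median log2FC -0.04), near the 13.7% of all tested genes. SLC25A37, the mitochondrial iron importer mitoferrin, was at 226, 241 and 242 scaled TPM in HBBko and 309.9, 314 and 419 in WT. TFRC, the transferrin receptor, had a log2FC of -0.17 and was not called. With any 1 HBBko library left out 1 iron gene was lower, and 1 was higher without WT replicate 3. A call was added for ALAS2 without WT replicate 1 (adjusted p = 0.036). Keeping genes of low value in the fit ended the call of SLC25A37.

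Of 32 tested genes of the membrane skeleton and blood groups 14 were lower and 2 higher (median log2FC -0.31). TSPO2, an erythroid membrane protein, was at 6.802, 6.56 and 7.52 scaled TPM in HBBko and 13.9, 16.2 and 25.2 in WT (log2FC -1.25 ± 0.18, limma adjusted p = 0.0024). TMOD1, which caps actin filaments, was at 14.1, 15.6 and 15.1 scaled TPM in HBBko and 22.3, 24.1 and 29.4 in WT. SLC4A1, the band 3 anion exchanger, was at 29.3, 33.5 and 32.7 scaled TPM in HBBko and 51.3, 54.9 and 128 in WT, and the water channel AQP1 at 2.82, 2.45 and 2.64 scaled TPM in HBBko and 4.49, 5.41 and 10.5 in WT. In SLC4A1 WT replicate 3 held the most, and without it the log2FC was -0.72. The membrane protein gene GYPC had a log2FC of -0.38 and was not called (adjusted p = 0.064; adjusted p = 0.017 with the replicate block). Calls ended for SLC4A1 without HBBko replicate 1 (adjusted p = 0.063). Limma also called GYPC without WT replicate 2 or 3 (adjusted p from 0.03). In a fit with no filter on low values, limma did not call SLC4A1 and AQP1. Leaving out HBBko replicate 1 left 4 lower genes, replicate 2 left 8 and replicate 3 left 7. No gene was higher without any 1 HBBko library or WT replicate 1. In the fit to all 18 libraries 22 were lower, and with no filter 6. Of the 14 lower membrane genes 10 were also lower at 48 h and none higher, and at 5 d 6 were lower and 7 higher in HBBko. The shares of all tested genes were 15.9% lower at 48 h, and 24.9% lower and 26.8% higher at 5 d.

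Late maturation genes had 5 lower of 19 and none higher (median log2FC -0.11). HEMGN, an erythroid nuclear factor, was at 53.8, 56.5 and 58.04 scaled TPM in HBBko and 75.7, 93.8 and 112 in WT, and RIOK3 and MXI1 had log2FC values of -0.49 and -0.57. Without HBBko replicate 1 or 3 the count was 3, and 1 was higher without WT replicate 1 and with the replicate block. Of the 5 lower genes 4 were also lower at 48 h and 4 at 5 d, against 15.9% and 24.9% of all tested genes. Erythropoietin and KIT signalling had 6 lower and 1 higher of 16 (median log2FC -0.17). ERFE, the hormone erythroferrone that erythropoietin induces, was at 23.7, 25.9 and 26.1 scaled TPM in HBBko and 58.7, 57.7 and 91.6 in WT (log2FC -1.39 ± 0.16, limma adjusted p = 0.00086). The negative regulators SH2B3 and CISH were at 18.1, 16.8 and 15.97 scaled TPM in HBBko and 28.1, 26.4 and 28.4 in WT and at 41.5, 38.6 and 43.1 scaled TPM in HBBko and 61.2, 54.95 and 71.5 in WT. KIT, the stem cell factor receptor, had a log2FC of 0.09 and was not called. Without HBBko replicate 1 the lower count was 3, and without HBBko replicate 1 or 3 none was higher. With no filter 3 were lower. All 6 lower genes were also lower at 48 h and 5 at 5 d, with the same shares of all tested genes (15.9% and 24.9%). In bulk samples fewer cells of a type and less RNA per cell cannot be told apart.

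Genes of G2 and mitosis were lower in 9 of 26 tested (median log2FC -0.27). HMMR, a spindle protein, was at 25.7, 26.6 and 25.8 scaled TPM in HBBko and 40.3, 53.1 and 49.99 in WT (log2FC -0.84 ± 0.10, limma adjusted p = 0.0012), and TOP2A, a topoisomerase, at 81.2, 84.9 and 82.3 scaled TPM in HBBko and 102, 127 and 117 in WT. The count was 2 without HBBko replicate 2, 3 without HBBko replicate 1 or 3, and 14 without WT replicate 1 or with the replicate block. The fit to all 18 libraries had 17 lower genes, and that with no filter 3. Of the 9 lower genes 6 were also lower at 48 h, but at 5 d 1 was lower and 6 were higher in HBBko. The shares of all tested genes were 15.9% lower at 48 h, and 24.9% lower and 26.8% higher at 5 d. S phase genes had 4 higher and 3 lower of 24 (median log2FC 0.01), near the 13.1% and 13.7% of all tested genes. CDT1, a licensing factor of replication origins, was at 88.8, 88.96 and 94.9 scaled TPM in HBBko and 157, 127 and 180.4 in WT. The higher count was 1 without HBBko replicate 1 and 2 without HBBko replicate 2 or 3, and the lower count 1 without HBBko replicate 1. The fit to all 18 libraries had 7 higher and 5 lower S phase genes. Of 20 cyclin D, CDK inhibitor and p53 target genes 3 were higher and 7 lower (median log2FC -0.25). CCND1, cyclin D1, was at 59.7, 45.8 and 49.1 scaled TPM in HBBko and 32.7, 18.99 and 15.6 in WT, and CDK6, its kinase, at 4.904, 4.65 and 4.06 scaled TPM in HBBko and 10.2, 10.1 and 6.09 in WT, moving in opposite directions. The death genes BBC3 (PUMA) and PMAIP1 (NOXA) had log2FC values of -0.88 and -0.89, and the inhibitor CDKN1B one of -0.52. Without HBBko replicate 1 or 2 that list had 1 higher and 4 lower. With no filter it had 3 lower and none higher. With no filter on low values, CCND1 and CDK6 lost the call.

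The immediate early genes had 3 higher and 2 lower of 26 (median log2FC 0.13), under the 13.1% and 13.7% of all tested genes. Beside EGR1 and FOSL1, DUSP2, a phosphatase that ends ERK signalling, was at 15.5, 13.4 and 15.8 scaled TPM in HBBko and 8.57, 6.26 and 5.42 in WT (log2FC 1.05 ± 0.15, limma adjusted p = 0.0019). FOSL1's partner JUN had a log2FC of 0.41 and was not called (adjusted p = 0.075; adjusted p = 0.032 with the replicate block). BTG2 and KLF10, which restrain growth, were lower (log2FC -0.65 and -0.62). The higher count was 5 without WT replicate 3, 7 without WT replicate 1 and 7 with the replicate block, and the lower count 4 without WT replicate 2. In the fit to all 18 libraries 9 were higher, and with no filter none was lower. Genes of the actin cytoskeleton had 6 higher and 5 lower of 32 (median log2FC 0.02), against 13.1% and 13.7% of all tested genes. Next to PLS3, CNN3 and RHOB, ZYX, a focal adhesion protein, was at 15.3, 14.9 and 15.2 scaled TPM in HBBko and 10.8, 8.82 and 8.97 in WT. ACTB, beta-actin, was at 192, 89.3 and 206 scaled TPM in HBBko and 148, 39.4 and 49.1 in WT, with a wide range in both lines, and was not called (adjusted p = 0.084; adjusted p = 0.0053 with the replicate block). Without HBBko replicate 1 or 3 the list had 3 higher and 3 lower, and with the block 10 higher. Its higher count was 12 in the fit to all 18 libraries. Integrins and tetraspanins had 3 lower of 9 (median log2FC -0.17). ITGA5 was at 5.74, 4.42 and 4.97 scaled TPM in HBBko and 20.8, 21.8 and 27.3 in WT, its partner ITGB1 at 73.2, 77.9 and 78.7 scaled TPM in HBBko and 98.6, 122 and 125 in WT and the platelet integrin ITGA2B at 1.84, 1.605 and 1.397 scaled TPM in HBBko and 4.29, 4.26 and 3.83 in WT, all without overlap. Without WT replicate 3, 5 were lower and 1 higher. A call was gained for ACTB without HBBko replicate 2 or WT replicate 1 (adjusted p from 0.011) and JUN without WT replicate 3 (adjusted p = 0.044). Without the filter on low values, limma did not call BTG2 and KLF10.

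In the oxidative response governed by NRF2 3 of 14 genes were higher and 1 lower (median log2FC 0.10), against 13.1% and 13.7% of all tested genes. NQO1 had a log2FC of 0.42 and HMOX1, heme oxygenase 1, was at 5.67, 4.497 and 5.55 scaled TPM in HBBko and 3.03, 3.34 and 4.94 in WT and was not called (adjusted p = 0.088; adjusted p = 0.043 with the replicate block). None was higher without HBBko replicate 1 and none lower without HBBko replicate 2. Significance was lost for NQO1 without HBBko replicate 1 or 2 (adjusted p up to 0.077). A call appeared for HMOX1 without WT replicate 3 (adjusted p = 0.009). Metallothioneins and zinc genes had 4 lower of 7 (median log2FC -1.29). SLC30A1, a zinc exporter, was at 1.36, 0.809 and 1.52 scaled TPM in HBBko and 3.74, 4.73 and 5.89 in WT, and MT1G at 2.72, 1.34 and 1.98 scaled TPM in HBBko and 5.08, 4.15 and 16.3 in WT. Only 1 gene was lower without HBBko replicate 2 or 3. Limma no longer called MT1G without HBBko replicate 2 or 3 (adjusted p up to 0.076). Keeping genes of low value in the fit ended the call of MT1G. TXNIP, which inhibits thioredoxin and glucose uptake, was at 40.3, 48.1 and 45.8 scaled TPM in HBBko and 87.8, 106 and 126 in WT, and with ARRDC4 made 2 lower of 5 arrestin domain genes (median log2FC -0.26), or 1 without HBBko replicate 1. Interferon response genes had 3 lower of 12 (median log2FC 0.07), against 13.7% of all tested genes. They were SLFN13, IRF1 (log2FC -0.87) and IFI27 (log2FC -0.78). The call was lost for ARRDC4 without HBBko replicate 1 (adjusted p = 0.052). In a fit with no filter on low values, limma did not call ARRDC4.

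Histone genes had 3 higher and 1 lower of 15 (median log2FC 0.04), against 13.1% and 13.7% of all tested genes. HIST1H2BK was at 45.2, 42.4 and 46.2 scaled TPM in HBBko and 29.6, 20.8 and 30.7 in WT and the linker histone HIST1H1C at 50.5, 49.1 and 51.3 scaled TPM in HBBko and 36.6, 33.7 and 42.2 in WT. Without HBBko replicate 3 none was lower, and 3 were without HBBko replicate 2 or with the replicate block and 4 without WT replicate 1. Of the other tested eyes absent, sine oculis and DACH genes, which act in a network with EYA4, EYA3 had a log2FC of 0.31 (adjusted p = 0.071; adjusted p = 0.028 with the replicate block), DACH1 -0.20 and SIX5 -0.14, so EYA4 was the only called gene of 4. A call was added for EYA3 without WT replicate 2 (adjusted p = 0.032).

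Markers of the labelled cell type were present. All 10 erythroid markers were tested and summed to 9485 to 10643 scaled TPM in HBBko and 7546 to 13270.1 in WT. Of these 10 markers 4 were lower and none higher (median log2FC -0.32), against 13.7% lower of all tested genes. Without WT replicate 3 the lower count was 3 and 2 were higher, without any 1 HBBko library 1 or 2 were lower, with the replicate block 6, in the fit to all 18 libraries 7, and with no filter none. Of other cell types, 1 of 10 early progenitor markers was tested. All 10 summed to 4.15 to 5.07 scaled TPM in HBBko and 3.702 to 4.602 in WT, and CD34 was under 1 in all 6 libraries. Of 10 megakaryocyte markers 2 were tested. All 10 summed to 2.55 to 3.47 in HBBko and 5.78 to 7.003 in WT, without overlap, and PF4 and PPBP were at 0. Mast cell, basophil and eosinophil markers had 6 of 10 tested, with sums of 918 to 1053 in HBBko and 588 to 796 in WT that did not overlap. FCER1A and CLC were at 0. PRG2 (log2FC 1.38) and the mast cell tryptase TPSAB1 (log2FC 0.49; its copy TPSB2 is near-identical and their split uncertain) were higher, and EPX, eosinophil peroxidase, had a log2FC of -0.28. No call was made for TPSAB1 without HBBko replicate 1 or 3 (adjusted p up to 0.083). Limma also called EPX without WT replicate 2 (adjusted p = 0.044). With no filter on low values, TPSAB1 lost the call. Myeloid markers had 2 of 11 tested, and all 11 summed to 4.02 to 4.68 in HBBko and 3.28 to 4.17 in WT. MPO, ELANE, S100A8 and S100A9 were at 0, while CEBPA was higher (log2FC 1.03) and AZU1 lower (log2FC -0.82). No lymphoid or stromal marker was tested, and each sum was under 1. The part of these markers in the other results was not tested.

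Of the 192 genes changed at least 2-fold before differentiation 147 were called the same way at 48 h and 116 at 5 d, and 106 at both. No library is shared between the stages. Among the 122 lower genes 100 were lower at 48 h and 88 at 5 d, against 15.9% and 24.9% of all tested genes. Among the 70 higher genes 47 were higher at 48 h and 28 at 5 d, against 21.2% and 26.8%. The median log2FC of the lower genes went from -1.26 to -0.70 and -0.61, and that of the higher genes from 1.14 to 0.39 and 0.08. A further set of fits left out WT replicate 3 of the undifferentiated libraries and also that of the later stage. In it 105 of 136 were called the same way at 48 h and 87 at 5 d. The lists of opposite calls were short. At 48 h they were the metallothioneins MT1G and MT2A, and at 5 d 15 genes, among them HSPA5 (log2FC 1.05 before, -1.13 at 5 d), MANF (log2FC 1.03 and -0.54), EGR1 (log2FC 1.49 and -1.09), CALB2 (log2FC 1.97 and -0.25) and CEBPA (log2FC 1.03 and -0.42), which went from higher to lower, and AQP1 (log2FC -1.02 and 0.23), which went from lower to higher. These 6 were chosen after their values were seen. PLS3 stayed lower, with log2FC values of -2.49 at 48 h and -3.55 at 5 d, RBMS1 at -3.07 and -2.46, and CA3 at -2.59 and -2.16. The log2FC of CHAC1 was -2.28 and -1.20, that of PSAT1 -1.76 and -0.52, and that of ASNS -1.55 and -0.44.

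**Figure D5:**
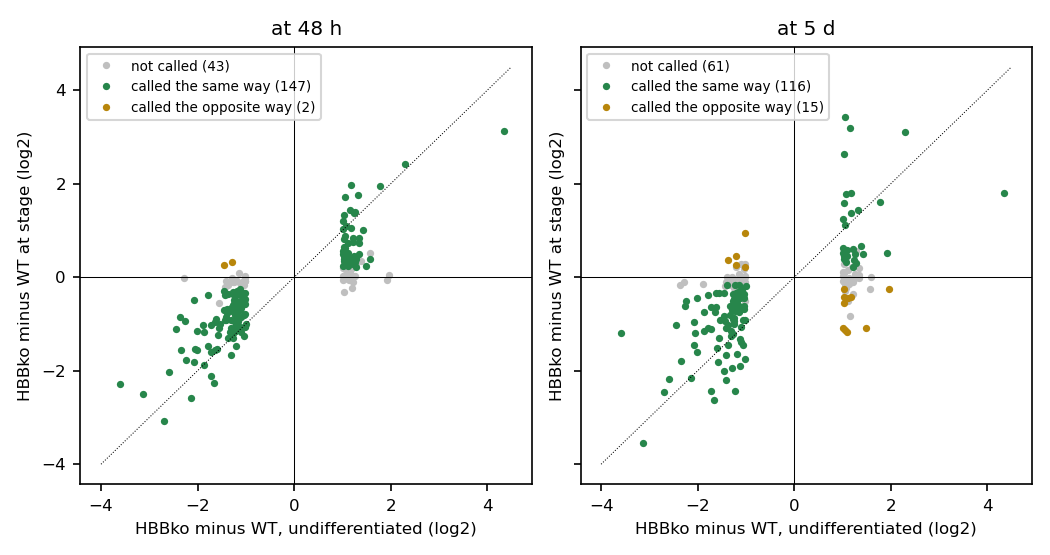
The 192 genes changed at least 2-fold before differentiation, followed to 48 h and 5 d. Each point is a gene, the x axis its log2 fold change (HBBko minus WT) in undifferentiated cells and the y axis that at 48 h or 5 d, both on log2(scaled TPM + 1). Lower genes lie mostly below 0 at both stages, and higher genes lie nearer to 0 at 5 d (median log2FC 0.08).

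In the authors' deposited table for undifferentiated cells 14581 genes had a q value and 3648 had a q under 0.05, 1688 higher and 1960 lower in HBBko. Of the genes tested here 10925 had a q value in it. Both analyses called 2797, all with the same sign, 157 were called here alone and 442 in the authors' deposited table alone. Thus 94.7% of the calls made here with a q value were among the authors' calls, and 86.4% of the authors' calls among tested genes were called here. Both start from the same libraries, so this compares methods and not samples.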

How the data were processed

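RNA of HUDEP-2 cells was sequenced in 18 libraries, of which the 6 undifferentiated ones (3 HBBko, 3 WT) were compared. RNA was extracted with RNeasy columns and libraries were made with a TruSeq kit, per the labels' protocols. The tools were kallisto and sleuth with hg38, per the submitters' processing notes, which give no versions. The expression signal that the authors deposited is TPM by its name, but library sums differ (783213 to 871601 here), so a further scaling was applied, not given in the sources used here. Read depth, and with it counting error, is unknown. Per the file headers, the authors' table of undifferentiated cells holds a p-value, a q-value and a log2 fold change per gene. The labels do not say that triplicates were separate cultures, so p-values measure the spread between these libraries, which may be technical.

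Genes at 1 scaled TPM or more in 3 or more of the 6 libraries were tested on log2(scaled TPM + 1) with limma 3.58.1 in R 4.3.3 (eBayes with an intensity trend, 4 residual degrees of freedom, two-sided, Benjamini-Hochberg over 11287 genes, called under an adjusted p of 0.05). Tables were made in Python 3.11.15 with pandas 2.3.3. The fit was tested on simulated data. Same-numbered libraries deviated together (correlations of deviations 0.213, 0.144 and 0.192, against -0.142 to -0.021 for differing numbers), so the fit with the replicate number as a block is given where it changes a call. The 18 alternatives varied the pseudocount, filter, scaling, library weights, trend, block and libraries.

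The members, 51 gene lists (849 symbols, 35 matched by an older symbol, 745 tested) and tests were chosen with earlier results of these data known. Named genes were 16 fixed ones, the 20 largest non-overlapping increases and 20 largest such decreases among called genes, and from each list up to 6 called members of largest change, called members against its majority and up to 4 uncalled members of highest mean. Another 33 list members were named after their values were seen. Gene coordinates are GENCODE 29 (GRCh38). Promoter windows are RefSeq (GRCh38.p14) and matched 8816 of the tested genes, under the share needed to use them as a background, so the whole promoter table was used. HBE1 did not pass the filter. A few genes that the rule names are counted but not reported here.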

Additional observations from a re-analysis of the deposited data

Results flagged for a closer look

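The difference between HBBko and WT was compared across stages in limma's fit to all 18 libraries, for 21 genes (12 globin, stress and switching genes and the 5 largest changes before differentiation in each direction, HBBP1 counting under both). Each value that follows is the log2FC at 48 h or 5 d less that in undifferentiated cells, with 3 libraries a group, and p-values were adjusted over all tested genes. Of 42 such differences 23 passed. This fit uses a spread shared by all groups, whereas undifferentiated WT libraries spread more than HBBko ones (median SD 0.15 against 0.068 log2 units). Its p-values may therefore be too small. No library was left out and no block was used for these differences, so their dependence on WT replicate 3 was not tested. The undifferentiated libraries are part of each one, and 9 of the genes were chosen for their large changes before differentiation, so the direction of their differences is no independent evidence.

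Gamma-globin and zeta-globin differences were larger at 5 d. For HBG1 the HBBko minus WT difference was larger by 2.37 (adjusted p = 1.1e-06), for HBG2 by 2.68 (adjusted p = 1.7e-06; 1.17 under quantile normalization), for zeta-globin HBZ by 2.03 (adjusted p = 1.1e-06) and for the pseudogene HBBP1 by 0.80 (adjusted p = 5.8e-05). HBB, already lower in HBBko, had a further -0.97 at 5 d (adjusted p = 0.0038), which quantile normalization turned to 1.73, and delta-globin HBD had -1.38 at 48 h (adjusted p = 0.00024). BCL11A, the gamma-globin repressor, had -0.52 at 5 d (adjusted p = 0.0021), which equal library sums moved to -0.23 without a call (adjusted p = 0.098).

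For ATF4 the lower level in undifferentiated HBBko cells was less marked by 0.41 at 48 h (adjusted p = 0.046; 0.073 under median-of-ratios scaling, which ended the call) and by 0.96 at 5 d (adjusted p = 2.2e-05). Its target CHAC1 had 1.31 at 48 h (adjusted p = 0.021) and 2.40 at 5 d (adjusted p = 4.2e-05; 1.503 under a pseudocount of 5), and the peptide hormone gene ADM2 had 1.34 (adjusted p = 0.0088) and 1.43 (adjusted p = 0.001). A pseudocount of 5 moved these ADM2 values to 0.79 and 0.39, and ended the call at 5 d (adjusted p = 0.093). SLFN13 had 0.55 at 48 h (adjusted p = 0.02) and 0.42 at 5 d (adjusted p = 0.025). With a pseudocount of 0.5 neither SLFN13 call held (adjusted p = 0.072 and 0.15), and that at 5 d was also lost under library weights (adjusted p = 0.064) and median-of-ratios scaling (0.11, adjusted p = 0.55), while equal library sums gave 0.99. PLS3 had 0.64 at 48 h (adjusted p = 0.0076) and -0.42 at 5 d (adjusted p = 0.021), the latter turned to 0.16 by equal library sums and to 0.047 by quantile normalization and moved to -0.70 by median-of-ratios scaling.

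Of the increases, EYA4 had -1.21 at 48 h (adjusted p = 0.00019) and -2.53 at 5 d (adjusted p = 5.2e-09). CALB2 had -1.92 (adjusted p = 1.4e-07) and -2.22 (adjusted p = 3.3e-09), and RHOB had -1.98 (adjusted p = 5.7e-05) and -1.40 (adjusted p = 6.3e-05).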

How the results depend on the processing

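Of 415 named genes 241 were called, and 138 of these kept the call and its direction in every alternative that tested them (122 were tested in all 18, 16 in fewer). A further 21 lost it only when 1 library was left out. In all, 89 named calls were lost when 1 library was left out, 77 with no filter on low values and 32 under another alternative. The cause was not tested, except that the fit with no filter tested 22530 genes and those that left out a library had fewer samples. The 3021 calls became 1747 with no filter and 5129 in a fit to all 18 libraries, and ranged from 1243 to 3170 when 1 library was left out. The 2-fold genes ranged from 136 to 269 with 1 library left out. A pseudocount of 5 gave 61 genes at least 2-fold changed, 56 of them called the same way at 48 h and 54 at 5 d. These counts ranged from 105 to 198 at 48 h and from 87 to 136 at 5 d with 1 library left out. The same-numbered library of that line was then left out at the later stage too. With the replicate number as a block (replicate block) 3759 genes were called, including 3007 of the 3021 with their direction. Among named calls the block ended that of FARS2 (adjusted p = 0.0501 against 0.0485) and no other. Calls that uncalled genes gained under other alternatives are not all listed here.

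Scaling moved the median log2FC of all tested genes to between 0.0007 and 0.035, and the higher share of calls from 48.99% to 54.2% with equal library sums. Quantile normalization turned the log2FC of MT-CO1 from -0.17 to 0.17 before differentiation, and turned the stage less undifferentiated difference of HBB from -0.60 at 48 h and -0.97 at 5 d to 1.73 at both, where this scaling sets each value by its rank alone. For PLS3 the 5 d less undifferentiated difference of -0.42 became 0.16 with equal library sums and 0.047 with quantile normalization, and for CNN3 that of -0.17 became 0.35 with a pseudocount of 5. Read depth is unknown, so it sets no limit that can be given here. Of 98 list counts (49 lists, 2 directions) the fit to all 18 libraries raised 38 by over 1.5 times, library weights 21 and the replicate block 19, while the fit with no filter lowered 34.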
